A study of Homo sapiens with 4 samples.

Results

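The genes of the proteasome and of the chaperonin TRiC were examined in chromatin immunoprecipitation sequencing (ChIP-seq) peak lists from HCT116 cells, a human colorectal carcinoma line. The members were the 47 genes whose symbol in the deposited lists, or in the RefSeq gene table, is PSMA, PSMB, PSMC or PSMD followed by a number, or TCP1, CCT2, CCT3, CCT4, CCT5, CCT6A, CCT7 or CCT8. They are 47 of 29853 RefSeq genes with a curated transcript, of which 19392 are protein-coding. The cells were grown in McCoy's 5A medium with bovine serum and fixed with formalin, without any treatment. There were 4 libraries in 4 groups of 1 library each, which were an immunoprecipitate (IP) of H3K27ac, an IP of HSF1, and an input for either IP. Each IP is represented by the regions (peaks) called over its own input, and no group was replicated, so nothing below carries a replicate error and no test between conditions was possible. HCT116 is a single tumour line, and its peaks describe that line only.

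The proteasome degrades proteins that carry ubiquitin. Its barrel, the core particle, is built of alpha subunits (PSMA), which form the gated outer rings, and beta subunits (PSMB), which form the inner rings and carry the proteolytic sites, and its cap is built of ATPases (PSMC), which unfold substrates, and non-ATPase subunits (most PSMD genes), which bind and deubiquitinate them. TRiC (TCP1 and the CCT genes) is a double ring of 8 different subunits that folds actin, tubulin and other newly made proteins. H3K27ac, histone H3 acetylated at lysine 27, is found at promoters and enhancers in use. HSF1 is the heat shock transcription factor, which binds inverted repeats of GAA at genes of chaperones, and some chaperonin genes are known as its targets in stressed cells. The subunits of a proteasome are needed in fixed numbers, and in human cells NFE2L1 is the transcription factor known to raise their genes together when proteasomes are inhibited.

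An H3K27ac region was listed for 10 of the 47 members (21.3%, exact Clopper-Pearson 95% interval 10.7 to 35.7%), against 24.7% of all RefSeq genes and 28.5% of protein-coding genes. A region is assigned to a gene by distance in the deposited lists, so this is nearness and not a measured target. Of the members, 7 had a region of the promoter class, within 2 kb of a transcription start (14.9%, 6.20 to 28.3%), against 9.99% of all RefSeq genes and 12.1% of protein-coding genes. An HSF1 region was listed for 4 members (8.51%, 2.37 to 20.4%), against 13.6% of all RefSeq genes and 12.5% of protein-coding genes. None of the 4 was of the promoter class (0 of 47, up to 7.55%), where 0.697% of all RefSeq genes and 0.48% of protein-coding genes had one. All of these intervals cover counting error only, and each of them holds the shares of all RefSeq and of protein-coding genes. With a score of 100 or more, 4 members had an H3K27ac region, against 6.6% of protein-coding genes, and with a score of 50 or more 0 members had an HSF1 region, against 2.29%. Within 10 kb of the start 1 member, CCT2, had an HSF1 region, against 2.75% of protein-coding genes. In all, 12 members had a region in either list and 35 had none, and PSMD12 and PSMB9 were the members in both lists. The shares of all genes in either list or in both were not computed, so these counts are not read as a result about the members. The lists hold only regions above a minimum score, so a gene with no region is a gene for which none was listed.

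The H3K27ac list held 15789 regions with 485046 tags (reads counted inside regions), and the HSF1 list 13127 regions with 317289 tags. The members took 15 of the H3K27ac regions with 476 tags and 4 of the HSF1 regions with 77 tags. The sources used here do not give the number of mapped reads per library, so the depth behind these tags is unknown. On chromosome 17, which holds 7 of the 15 H3K27ac regions of the members, the median was 36 tags per region, against 24 over the list, and the part of this in the members' values was not tested.

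Among the groups of subunits, the ATPases had an H3K27ac region for 2 of 6 genes (PSMC5 and PSMC6), the chaperonin for 2 of 8 (CCT6A and CCT7), the non-ATPase PSMD genes for 3 of 14 (PSMD9, PSMD11 and PSMD12), the beta subunits for 2 of 11 (PSMB5 and PSMB9) and the alpha subunits for 1 of 8 (PSMA1). Among the PSMD genes, PSMD5, PSMD9 and PSMD10 are known as chaperones of cap assembly and not as subunits of the finished cap, and without them 9 of 44 members had an H3K27ac region and 4 an HSF1 region. In the HSF1 list the beta subunits had 2 genes (PSMB4 and PSMB9), the PSMD genes 1 (PSMD12) and the chaperonin 1 (CCT2), and the alpha subunits and the ATPases had none. The intervals of these shares overlap widely, and with 6 to 14 genes per group no order between them can be read.

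**Figure D1:**
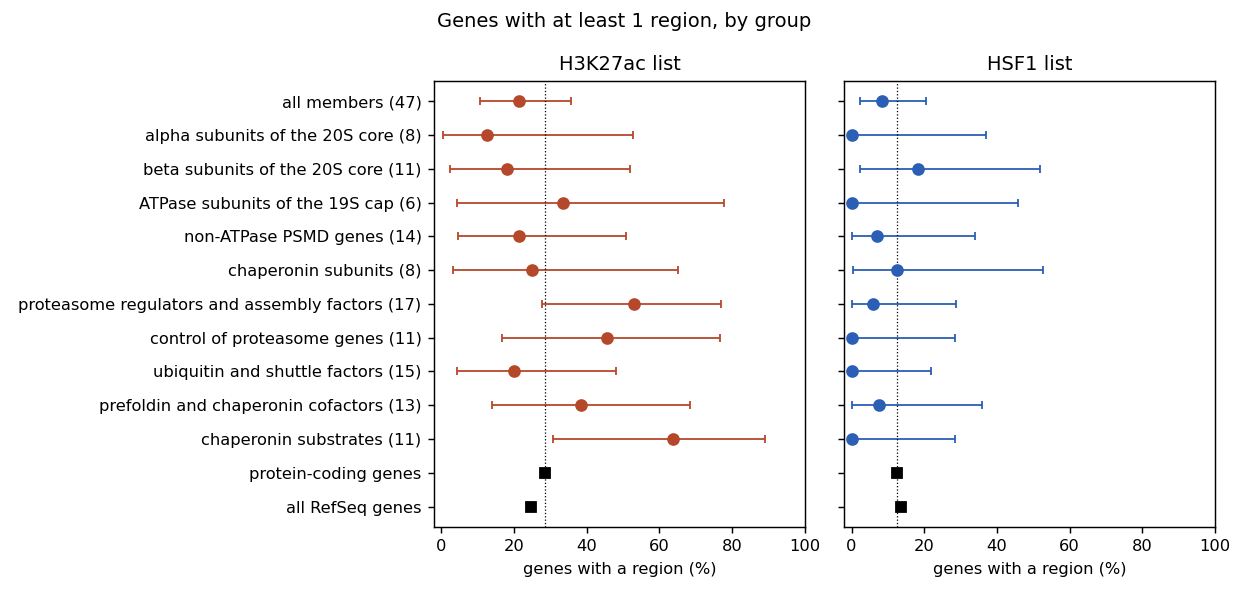
Share of genes with at least 1 region in the H3K27ac list (left) and the HSF1 list (right), in percent, for the members, their 5 groups and 5 related gene lists, with the number of genes in parentheses. Points are shares, bars are exact 95% intervals, squares and the dotted line are the shares of all RefSeq and protein-coding genes. The members lie at 21.3% and 8.51%, near the squares, and the regulators and assembly factors and the chaperonin substrates lie highest in the left panel. The related lists were chosen with earlier results of these data known, so this order is a description only.

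The H3K27ac regions of the members spread from the 2.95th to the 96.6th percentile of the list in fold enrichment, the ratio of IP tags over the local background that the authors' caller MACS gave. Their median was 6.17-fold (4.47 to 9.54-fold), against 6.73-fold over all regions. PSMD12 gave 5 of the 15 regions, and with the highest region of each gene the median was 7.22-fold in the members, against 7.25-fold over all symbols of the list. Their median number of tags was 26, against 24, and their median width was 1293 bp, against 1198 bp. The median score (10 times the negative log10 of the caller's p-value) was 75.8 in the members and 64.3 over the list. The members' regions had a median distance to a start of 1.77 kb, against 21.96 kb over the list. For the list, distance and class are those of the first transcript listed per region, and for the members those of the gene's nearest one. The distances are thus not measured alike. Of the 15 regions 8 were of the promoter class (53.3%, 26.6 to 78.7%), against 16.7% of the list. That interval takes regions as independent, though 5 are of PSMD12 and 2 of PSMB5. By gene, 7 of the 10 members with a region had a promoter-class one, against 2343 of the 5528 protein-coding genes with a region. Of the other regions 5 were upstream (2 to 20 kb before the start), 1 was intronic and 1 intergenic, and none was exonic. The false discovery rates of MACS for the 15 regions ran from 9.03 to 61.2%, where the lowest rate in the whole list was 8.99%. These rates rose with the score, from 9.03% at a score of 50.1 to 61.2% at 167.

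**Figure D2:**
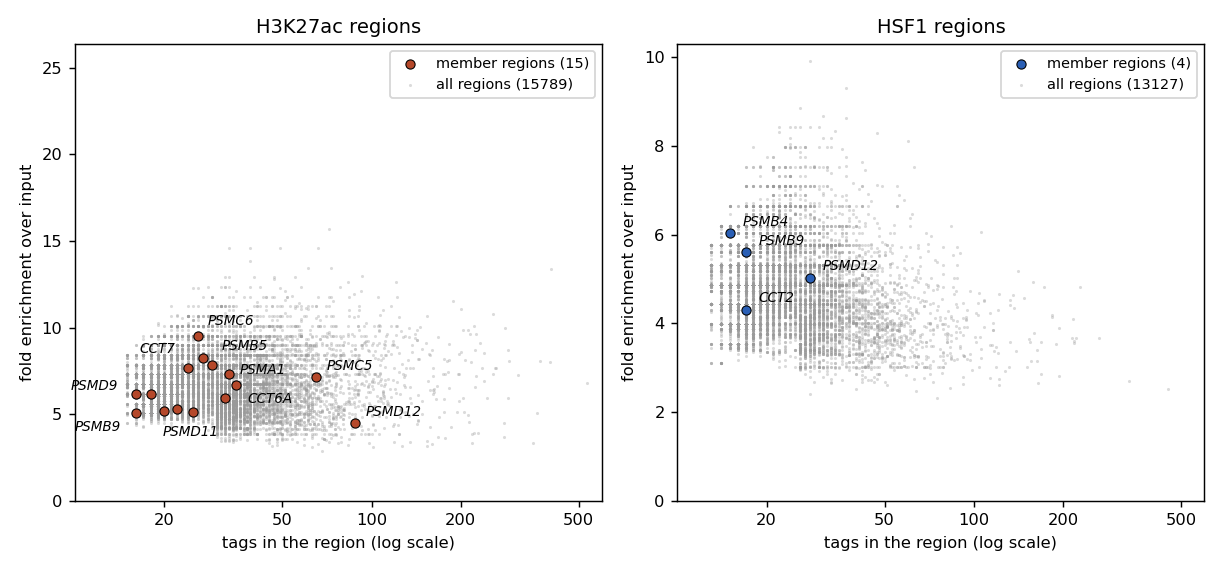
Fold enrichment over input against the number of tags (log scale) for each region of the H3K27ac list (left) and the HSF1 list (right). Large points are the 15 and 4 regions of the members, each gene labelled at its region with the most tags, and grey points are all regions of the list. PSMC6 is the highest member at 9.54-fold and PSMD12 has the most tags, 88, at 4.47-fold.

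PSMC6, an ATPase of the cap ring, had the member region of highest fold enrichment, 9.54-fold with 26 tags (exact Poisson 95% interval 16.98 to 38.1) and a score of 75.8. It lay at chr14:53174003-53175295 (hg19), began 86 bp after the start and had its summit 558 bp after it. It was at the 96.6th percentile of fold enrichment in the list. PSMC5, another ATPase of the same ring, had a region of 7.14-fold at chr17:61904539-61906840 that held 65 tags (50.2 to 82.8), or 28.2 tags per kb (21.8 to 36.0), and covered both of its listed starts. Its score of 167 was the highest of the members, and the same region was also given to FTSJ3, which runs in the other direction from it and encodes a ribosomal RNA methyltransferase. The caller's false discovery rate for this region, 61.2%, was also the highest of the members.

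PSMD12, a subunit of the cap's lid, had 5 regions, more than any other member. The one at its start, chr17:65360712-65364828, spanned 4117 bp and held 88 tags (70.6 to 108), which were at the 97.8th percentile of tags and the 98.6th of width. Its fold enrichment of 4.47 was at the 2.95th percentile, so that this region was wide and full of tags and yet low in fold. The 4 others lay upstream, with midpoints 3.47, 5.49, 6.90 and 15.5 kb before the start, and were 5.13, 5.92, 8.24 and 5.21-fold enriched with 25, 32, 27 and 20 tags, so that the third of them was the highest in fold. Of these upstream regions 3 were also given to PITPNC1, the next gene, which encodes a phosphatidylinositol transfer protein.

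When H3K27ac regions within 10 kb of each other were joined, as is done to find super enhancers, the PSMD12 regions became part of a joined region of 80.7 kb. It held 20 regions and 1240 tags, and only 5 of the 20 belong to PSMD12, while 15 were given to PITPNC1 alone. It was 14th of 10295 joined regions, ranked by width multiplied by fold enrichment and summed over regions, and was among the 279 above the tangent of the ranked curve. With joining at 5 kb it was 60th of 11514 with 10 regions, at 20 kb it was 17th of 8889, and by tags it was 9th. None of the other members' joined regions passed the tangent, PSMC5 being next at 1183rd and PSMB9 last at 10239th. Most of the regions in this cluster were thus given to PITPNC1, and the lists do not say on which gene they act.

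**Figure D3:**
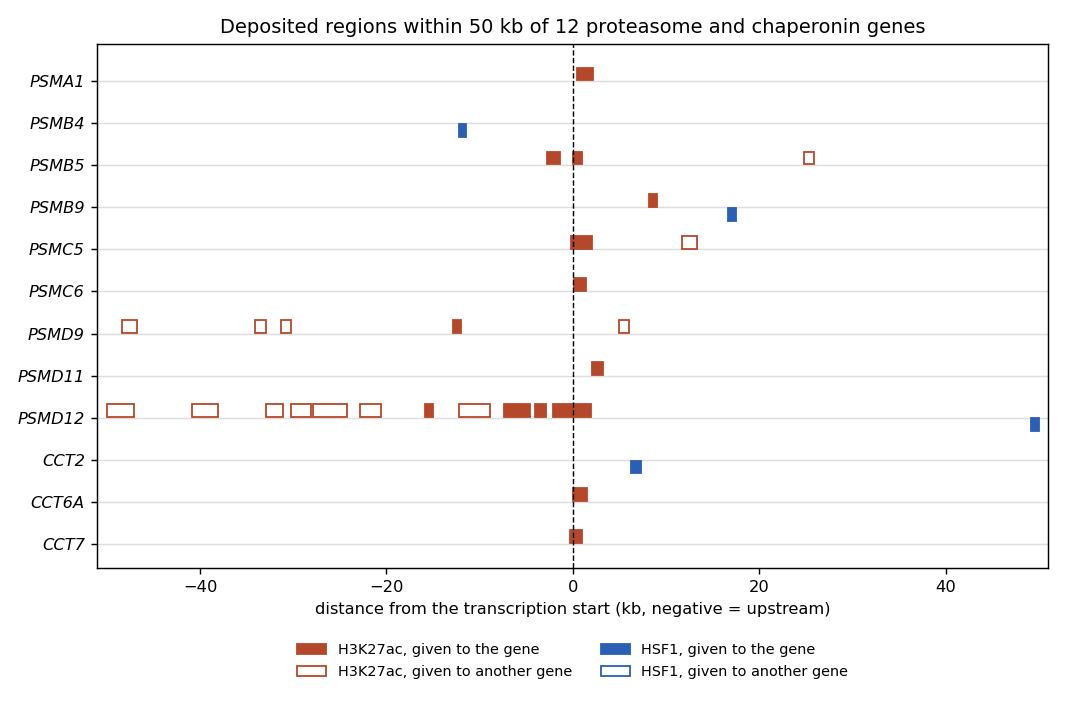
H3K27ac (red) and HSF1 (blue) regions within 50 kb of the most frequently listed start of the 12 members that have a region, placed by distance in kb (negative is upstream, and regions are drawn to the edge of the window). Filled bars are regions given to the gene and open bars regions given to another gene. PSMD12 has 12 H3K27ac regions, 5 filled and 7 open, while PSMB4 and CCT2 have none.

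PSMB5, the beta subunit with chymotrypsin-like activity and the target of bortezomib, had 2 promoter-class regions that lay on either side of its listed starts, 1436 bp apart. The downstream one, chr14:23503129-23504064, was 6.17-fold enriched with 18 tags (10.7 to 28.4), and the upstream one, chr14:23505501-23506889, was 7.86-fold enriched with 29 tags (19.4 to 41.6). PSMA1, an alpha subunit, had a region of 7.30-fold with 33 tags (22.7 to 46.3) at chr11:14539838-14541533, whose nearer edge was 458 bp inside the gene and whose summit was 1856 bp after the start. The chaperonin genes CCT6A and CCT7 had 1 region each. That of CCT7, chr2:73461028-73462384, covered both listed starts at 7.69-fold with 24 tags (15.4 to 35.7), and was shared with PRADC1 on the other strand. That of CCT6A, chr7:56119471-56120932, began 14 bp after the start at 6.69-fold with 35 tags (24.4 to 48.7), and was shared with PSPH. CCT6A has 2 pseudogene copies on chromosome 7 in RefSeq, and the sources used here do not say how reads that match several places were treated. Across the 8 promoter-class regions, 3 covered a listed start (37.5%, 8.52 to 75.5%), against 28.8% of the promoter-class regions of the list. The summit lay downstream of the start in 6 of 8, against 55.5%, and 3 of 8 were given to another symbol too, against 23.1%.

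**Figure D4:**
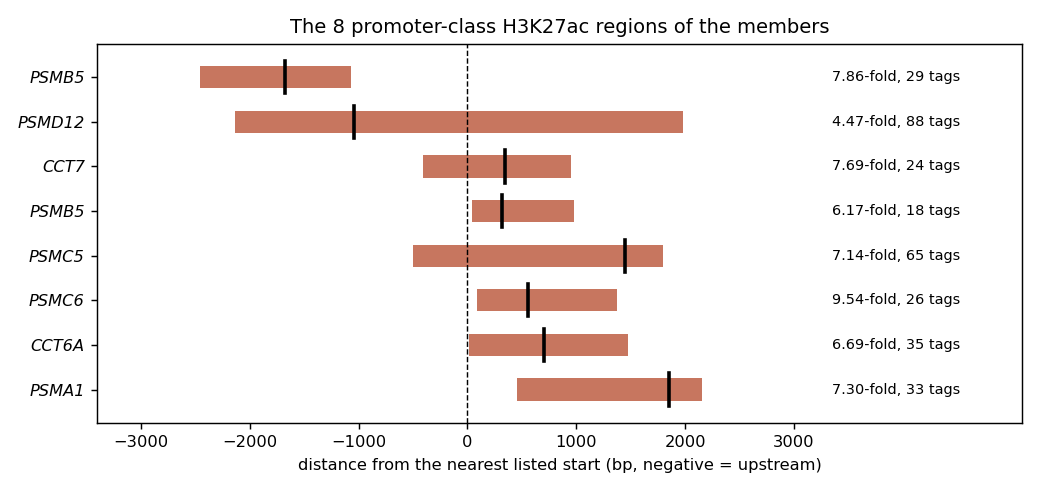
The 8 promoter-class H3K27ac regions of the members, drawn as bars by distance in bp from the nearest listed start (dashed line, negative is upstream), with the summit as a black mark and the fold enrichment and tags at the right. PSMD12, CCT7 and PSMC5 have bars that cover the start, and 6 of the 8 summits lie downstream of it.

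Promoter sequence from RefSeq was compared with these regions for the members that have a window in the RefSeq table (GRCh38.p14, 250 bases before to 50 after the start that RefSeq gives, which need not be the start in the lists). It was matched for 41 of the 47 members, and CCT6A, PSMA7, PSMB1, PSMB6, PSMB7 and PSMD4 were not matched. The 5 windows below are those of PSMD12, PSMC5, PSMB5, PSMC6 and CCT7. They are shown because these genes have the regions of most tags, of highest fold enrichment or that cover or flank the start. The windows were not placed on the hg19 regions, so their letters need not lie inside a region. That of PSMC6, for example, began 86 bp after the listed start, and a window ends 50 bases after the start. Capitals mark the antioxidant response element core TGACNNNGC, a site for NFE2L1 and related factors, in PSMD12, and the CCAAT box, a site for NF-Y, in PSMC5 and PSMB5. PSMC6 and CCT7 hold none of the motifs searched.
PSMD12: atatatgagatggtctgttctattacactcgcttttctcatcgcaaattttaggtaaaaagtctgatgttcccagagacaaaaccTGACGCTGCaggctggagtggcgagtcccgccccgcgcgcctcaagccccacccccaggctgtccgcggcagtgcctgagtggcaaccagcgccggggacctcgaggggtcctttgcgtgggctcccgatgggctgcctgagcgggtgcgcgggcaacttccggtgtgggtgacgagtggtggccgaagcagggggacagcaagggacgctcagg
PSMC5: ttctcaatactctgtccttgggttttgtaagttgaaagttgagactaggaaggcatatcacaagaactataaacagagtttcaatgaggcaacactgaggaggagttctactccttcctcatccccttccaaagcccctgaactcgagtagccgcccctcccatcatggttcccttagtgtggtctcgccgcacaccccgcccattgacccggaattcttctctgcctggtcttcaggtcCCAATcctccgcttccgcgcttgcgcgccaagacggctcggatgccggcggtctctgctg
PSMB5: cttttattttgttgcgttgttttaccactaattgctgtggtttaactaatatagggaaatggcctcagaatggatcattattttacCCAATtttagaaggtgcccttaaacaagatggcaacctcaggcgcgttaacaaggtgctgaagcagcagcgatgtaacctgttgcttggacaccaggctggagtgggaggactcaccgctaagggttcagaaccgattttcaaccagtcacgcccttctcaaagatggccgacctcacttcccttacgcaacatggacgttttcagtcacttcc
PSMC6: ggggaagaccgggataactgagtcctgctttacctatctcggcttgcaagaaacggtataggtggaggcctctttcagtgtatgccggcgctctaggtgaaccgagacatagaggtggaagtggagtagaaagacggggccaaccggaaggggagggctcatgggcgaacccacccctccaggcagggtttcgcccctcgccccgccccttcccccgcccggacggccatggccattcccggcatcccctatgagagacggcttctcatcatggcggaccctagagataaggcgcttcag
CCT7: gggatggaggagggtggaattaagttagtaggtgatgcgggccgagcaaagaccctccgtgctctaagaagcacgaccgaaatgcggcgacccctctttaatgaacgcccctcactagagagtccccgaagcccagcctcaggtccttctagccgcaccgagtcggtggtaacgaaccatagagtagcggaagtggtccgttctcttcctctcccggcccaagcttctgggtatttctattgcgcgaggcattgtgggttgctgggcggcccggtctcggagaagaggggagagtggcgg
PSMD12 is at chr17:67366528-67366827 on the minus strand, PSMC5 at chr17:63827181-63827480 on the plus strand, PSMB5 at chr14:23035171-23035470 on the minus strand, PSMC6 at chr14:52706950-52707249 on the plus strand and CCT7 at chr2:73234058-73234357 on the plus strand. The element of PSMD12 begins 165 bases before the start, the CCAAT box of PSMB5 164 bases and that of PSMC5 10 bases before it.

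Over the 41 members, the median G and C content of the windows was 61.3%, against 58.3% over 27195 windows of all genes and 62.7% over 15812 windows of protein-coding genes, and the median number of CpG was 22, against 14 and 22. The CCAAT box, on either strand, was in 21 of 41 windows (51.2%), against 35.7% of all windows and 36.3% of protein-coding ones. TGACNNNGC on either strand was in 9 of 41 (21.95%), against 13.6 and 14.3%. These 9 were CCT4, PSMB3, PSMB9, PSMC4, PSMD1, PSMD12, PSMD3, PSMD5 and PSMD9. Of them 3 had an H3K27ac region, PSMD12 at the promoter and PSMD9 and PSMB9 away from it. An H3K27ac region was listed for 21.3% of all members and 28.5% of protein-coding genes, so 3 of 9 is not read as a result. For HSF1, the heat shock element was searched as GAANNTTC or TTCNNGAA, which read the same on both strands. It was in 4 of 41 windows (9.76%), against 13.7% of all and 11.4% of protein-coding windows. No interval was computed for these shares of windows, and their distance from the shares of other genes was not tested. A match is a description of letters, and a window with no match says nothing about the factor.

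The 4 windows with a heat shock element were those of the chaperonin genes CCT4 and TCP1 and of PSMD5 and PSMD6. None of these genes had a region in either list, as was so for 35 of the 47 members. An HSF1 region was listed for 12.5% of protein-coding genes, so 4 genes without one are too few to be read as a result. Their stretches are shown because they are the only places in the members' windows where the letters of an HSF1 element occur. Capitals mark the element, which begins 38 bases after the start in CCT4 and 231, 45 and 200 bases before it in TCP1, PSMD5 and PSMD6.
CCT4: cgacgccggcgccgctTTCTGGAAggtt
TCP1: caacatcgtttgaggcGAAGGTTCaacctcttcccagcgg
PSMD5: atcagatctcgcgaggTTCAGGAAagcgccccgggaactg
PSMD6: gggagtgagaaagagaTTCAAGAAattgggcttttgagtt

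The remaining H3K27ac regions of members lay away from a start. PSMD9, which acts in assembling the cap's ATPase ring, had a region of 6.17-fold with 16 tags (9.15 to 25.98) at chr12:122313865-122314665, centred 12.4 kb before its start and given to HPD as well. Of 5 H3K27ac regions within 50 kb of PSMD9, the other 4 were given to HPD alone, among them one of 6.73-fold with 20 tags whose edges lie 4.94 and 6.06 kb inside PSMD9. PSMD11, a lid subunit, had an intronic region of 5.29-fold with 22 tags (13.8 to 33.3) at chr17:30773546-30774710, centred 2.60 kb after its start. PSMB9, a subunit of the immunoproteasome that interferon induces, had a region of 5.05-fold with 16 tags (9.15 to 25.98) at chr6:32830124-32830942, which lay 2.50 kb beyond the gene's end. Its score of 50.1 was close to the list's minimum of 50, as were those of PSMD11 (50.8) and PSMD9 (51.3). Scores near the minimum were also those of the PSMD12 regions at 15.5 and 3.47 kb (51.2 and 53.95). The downstream PSMB5 region (53.8) and the CCT7 region (54.2) were near it too.

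The HSF1 regions of the members lay 6.74 to 49.9 kb from their starts. The median distance was 14.4 kb, against 136 kb over the list, where the first transcript listed per region was taken. That of PSMB4, a beta subunit of the core, was the highest in fold, 6.04 with 15 tags (8.40 to 24.7), at chr1:151359787-151360627, 11.8 kb before the start. PSMB9 had one of 5.61-fold with 17 tags (9.90 to 27.2) at chr6:32838562-32839434, 10.9 kb beyond the gene's end. PSMD12 had one of 5.03-fold with 28 tags (18.6 to 40.5) at chr17:65312044-65313610, which lay 20.4 kb beyond the gene's end, on the opposite side of the gene from its H3K27ac cluster. CCT2, a chaperonin subunit, had an intronic one of 4.31-fold with 17 tags (9.90 to 27.2) at chr12:69985870-69986950, 6.74 kb after the start. Their median fold enrichment was 5.32, against 4.68 over the list, and their scores ran from 30.5 to 46.6, where the list's minimum was 30. Their false discovery rates ran from 12.5 to 22.1%.

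None of the 4 HSF1 regions overlapped an H3K27ac region by 1 bp or more, as was so for all but 39 of the 13127 HSF1 regions (0.297%). The nearest H3K27ac region was 7.62 kb away for PSMB9, where it was the gene's own, and 38.7 kb for PSMB4, 47.1 kb for PSMD12 and 83.1 kb for CCT2. Within 10 kb there was thus 1 of 4, against 1.77% of the HSF1 list, whose median gap was 781 kb. With 1 region no share can be read. The list's regions mostly lay farther from genes (62.5% were intergenic), and the part of this in the gaps was not tested.

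Genes that work with the members were read in the same way from 5 lists. These lists were chosen with earlier results of these data known, so their shares are descriptions and are not read as enrichment. Of 17 genes listed as regulators and assembly factors of the proteasome, 9 had an H3K27ac region (52.9%, 27.8 to 77.0%, against 28.5% of protein-coding genes). A promoter-class one was listed for 7 (41.2%, 18.4 to 67.1%, against 12.1%). The 9 included all 4 PSMG genes, which encode the chaperones that assemble the core. PSMG3 reached 8.55-fold at the promoter and PSMG1 7.86-fold, 10.1 kb from its start. ADRM1, a ubiquitin receptor of the cap, was at 8.42-fold with 20 tags. PAAF1, an assembly chaperone of the cap, was at 7.59-fold. Of 11 genes in the control of proteasome genes, 5 had an H3K27ac region (45.5%, 16.7 to 76.6%, against the same 28.5%). NFE2L1 had 2 regions, the higher of 6.88-fold with 58 tags. NFE2L2, its relative in the oxidative stress response, had 5, up to 10.0-fold in an intron. NFYB, a subunit of the CCAAT-binding factor NF-Y, was at 7.30-fold in an intron. DDI2, the protease that activates NFE2L1, was at 5.61-fold at the promoter. No test was made between these lists, the members and other genes.

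Of 15 ubiquitin and shuttle factors 3 had an H3K27ac region (20%, 4.33 to 48.1%, against 28.5% of protein-coding genes). Among them RAD23B, which carries ubiquitinated proteins to the proteasome, had its highest at 9.54-fold, 37.1 kb upstream, and one of 5.29-fold at the promoter, and UBQLN4 had one of 6.73-fold. Of 13 genes of prefoldin, which passes unfolded actin and tubulin to the chaperonin, and of its other cofactors, 5 had one (38.5%, 13.9 to 68.4%, against 28.5%). PFDN2 was at 10.1-fold at the promoter, and PFDN1 at 7.86-fold in an intron and 6.59-fold at the promoter. PDCL was at 6.90-fold, 3.94 kb upstream, and PFDN4 at 5.61-fold, 14.6 kb upstream. Of 11 chaperonin substrates 7 had one (63.6%, 30.8 to 89.1%, against 28.5%). TUBA1C, an alpha tubulin, was at 10.0-fold at the promoter. ACTG1 and ACTB, the cytoplasmic actins, were at 8.03-fold, 7.59 kb upstream, and at 7.80-fold at the promoter. CDC20, an activator of the anaphase-promoting complex, was at 7.86-fold, 7.70 kb upstream. The HSF1 list held 1 of the 17 genes listed as regulators and assembly factors (5.88%). This gene was SEM1, itself a component of the cap under another symbol, at 5.23-fold and 43.1 kb from its start. The HSF1 list held 1 of the 13 prefoldin and cofactor genes (7.69%), URI1 at 5.76-fold and 185 kb from its start. Of the 11 control genes, 15 ubiquitin and shuttle factors and 11 substrates it held 0. The share of protein-coding genes was 12.5%, which the exact interval of each list holds.

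Of the 37 members without an H3K27ac region, 10 had an adjacent protein-coding gene with a promoter-class one (27.03%, 13.8 to 44.1%), against 17.4% of the protein-coding genes without an H3K27ac region, a share within that interval. PSMA2 and its neighbour MRPL32, which lie on opposite strands, are an example, with a region of 7.30-fold and 25 tags centred 1.82 kb after the start of MRPL32. CCT5 lay beside CMBL (8.42 and 6.17-fold), CCT8 beside MAP3K7CL (7.86-fold), PSMD7 beside ZFHX3 (7.30-fold), PSMB2 beside C1orf216 (7.21-fold) and PSMA8 beside SS18 (6.73-fold). PSMD4 lay beside PIP5K1A (6.50-fold), PSMA4 beside CHRNA5 (6.17-fold), PSMD5 beside PHF19 (5.61-fold), and PSMB11, a thymus subunit, beside PSMB5. The order of the genes, taken from RefSeq, does not give the distance between them.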

How the data were processed

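ChIP-seq of HCT116 cells was analysed from 1 annotated peak list per IP, with no list for the inputs. FastQC and Bowtie2 2.2.7 and the build hg19 are named in the submitters' processing notes, and the study's methods name MACS. The sources used here do not give read filters or mapped depth. The lists were deposited with 1 row per region and transcript (39350 for H3K27ac, 24461 for HSF1), and 1 entry was kept for each region and symbol. The count of tags in each region was deposited as a whole number without normalization. The score, deposited on the −log10 scale of the caller multiplied by 10, had minima of 50 for H3K27ac and 30 for HSF1. Fold enrichment is the ratio of IP to local background that the authors' caller computed, and its false discovery rate, in percent in the deposited lists, comes from exchanging IP and input. Assignments and distances were those deposited.

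Accessions, or symbols where an accession is no longer listed, were matched to RefSeq (GRCh38.p14) for names and gene order: 7367 of 7390 symbols for H3K27ac and 4083 of 4101 for HSF1. Members and lists were chosen with earlier results of these data known. Named genes were the members with a region, up to 4 of each related list by fold enrichment, and adjacent genes, and a gene that this rule names is not reported here. Intervals were exact at 95%. Alternatives were higher score minima, other classes and distances, protein-coding genes, overlap limits and stitching distances. Steps were tested on simulated data. Tools were pandas 2.3.3, numpy 2.4.6, scipy 1.17.1 and matplotlib 3.10.9 under Python 3.11.15.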

Additional observations from a re-analysis of the deposited data

How the results depend on the processing

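The counts of members depended on the score minimum. At a score of 100 or more, 4 members had an H3K27ac region (CCT6A, PSMA1, PSMC5 and PSMD12), where 10 had one at the deposited minimum. Among the members' H3K27ac regions the false discovery rate rose with the score, so this minimum kept those of higher rate. At 50 or more 0 had an HSF1 region, where 4 had one. Of protein-coding genes, 6.6 and 2.29% had a region at these scores. With the promoter class only, 7 members had an H3K27ac region and 0 an HSF1 region. With HSF1 regions within 10 kb of the start, 1 member was left (CCT2). With protein-coding genes only, the share of genes with an H3K27ac region was 28.5% and that with an HSF1 region was 12.5%. With edges within 10 kb, 1 member HSF1 region lay near an H3K27ac region. Taking the highest region of each gene, the median fold enrichment was 7.22 for H3K27ac, against 7.25 over all symbols, and 5.32 for HSF1, against 5.17. Without PSMD5, PSMD9 and PSMD10, an alternative chosen after seeing the data, the counts were 9 and 4. The PSMD12 cluster was above the tangent with joining at 5, 10 and 20 kb and when ranked by tags. No paired analysis was possible because each group is 1 library. With 15 to 88 tags per member region, and tags per library unknown, a weaker region could not be seen.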
